A study of Hakea laurina with 6 samples.

Results

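Ribosome assembly, transfer RNA (tRNA) metabolism and translation factors were examined in roots of *Hakea laurina*, a Proteaceae shrub that forms cluster roots, dense groups of short rootlets that acquire phosphorus (P) from poor soils. The members were 100 contigs out of the 7819 in the authors' deposited table of differentially expressed, annotated contigs. A contig is a transcript assembled de novo, named by its closest Arabidopsis gene. A contig was taken where it had a CPM (read count scaled to library size) of 1 or more in all 3 libraries of at least 1 root type and an Arabidopsis description with 1 of these terms: nucleolar, rRNA, tRNA, ribosome biogenesis, translation initiation, elongation factor, RNA helicase, fibrillarin, NOP5, pseudouridine or pumilio. Descriptions with the terms ribosomal protein, 60S or 40S were left out. The table itself lists contigs that the authors had already selected for a difference between the root types, and the CPM minimum was set on the same libraries. The differences of the members are therefore given as a description, and their calls in the fit over all contigs are counted but not offered as a test.

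RNA-Seq was done on 3 libraries of mature cluster roots (MCR), whose rootlets have reached their full length, and on 3 of tips of cluster-bearing lateral roots (TCR). All plants were grown at low P, in hydroponic solution of 0 μM P to which 6.4 μM P was added at intervals. The labels name no separate plant for each library, so the spread between the 3 libraries of a root type may be partly technical. Root types were taken from the library titles. The tissue field of the same libraries gives them the other way round, and all directions below would reverse if that field, and not the title, were correct. Markers of the root tip were checked against the titles, in 7 rows of the table. Of these, 6 were higher in TCR, of which PLT1, SMB and WOX5 were called and RGF2, RGF8 and SCR were not. The row higher in MCR, SCRL16, had 3.74 CPM in MCR2 and 0 in every other library. PLT1, a transcription factor of the root stem cell niche, had 0.0679, 0.0624 and 0.0608 CPM in MCR1, MCR2 and MCR3, against 38.8, 37.2 and 5.55 CPM in TCR1, TCR2 and TCR3. WOX5, a marker of the quiescent centre, was at 0.0679 CPM in MCR1 and at 0 in MCR2 and MCR3, against 1.79, 1.29 and 0.708 CPM in the 3 TCR libraries, and was under the CPM minimum. Of the phosphate transporter, acid phosphatase and malate channel rows with the same CPM minimum, 29 of 33 were higher in MCR, and 25 of these were called. These rows come from the table of selected contigs. Of its 4604 rows past the minimum, 1175 were higher in MCR and 777 were called so, against 2.40% of all contigs tested.

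A ribosome is built in the nucleolus, where ribosomal RNA (rRNA) is cut, methylated and pseudouridylated, and where assembly factors and RNA helicases fold it around the ribosomal proteins. Initiation factors bring the finished ribosome to the mRNA, elongation factors move it along, and it reads tRNAs that have been trimmed, modified and loaded with amino acids by the aminoacyl-tRNA synthetases. In plant roots these activities are high in the dividing cells of the tip. Mitochondria and chloroplasts keep translation machinery of their own, and several members are its nuclear-encoded parts.

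The libraries held between 13583740 (TCR1) and 19119494 (MCR3) estimated counts. A rounded count of at least 1 was found for 119736, 135523 and 87361 contigs in MCR1, MCR2 and MCR3, against 95758, 106702 and 85093 in TCR1, TCR2 and TCR3. Over all contigs tested, MCR3 had a Spearman correlation of 0.871 with TCR3, against 0.626 with MCR1 and 0.515 with MCR2, and MCR2 had correlations of 0.437 to 0.517 with every library except MCR1 (0.791). TCR3 had 0.829 with TCR1 and 0.826 with TCR2, which had 0.953 with each other. The number of members called and the summed CPM of the members higher in TCR are given with and without these libraries. The sums by class are given with all 6 libraries only. Values below are CPM from the TMM-normalized libraries, in which depth and composition have been adjusted, and they compare 1 contig between libraries. The contigs have no length here, so levels are not compared between contigs. A fold change is the log2 ratio of MCR over TCR with its SE from the edgeR quasi-likelihood fit over 49813 contigs.

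Of the 100 members, 6 had a higher mean in MCR and 94 had a higher mean in TCR. In 3 of the 6 no library overlapped between root types, and in all 94 each MCR library was below each TCR library, which makes 97 members without overlap. Over all contigs tested, 10.7% had no overlap with MCR higher and 20.3% with TCR higher, 31.0% in all, shares from which nothing is read here since the members were chosen on this contrast. The log2 fold changes of the 94 contigs lay between −5.89 and −1.10 with a median of −1.95. The median was 0.57 over all contigs tested and −0.356 over the 14706 whose mean CPM exceeded 5. Taking the contigs higher in TCR fixed the sign for the 94. The 3429 rows of the table past the same CPM minimum and higher in TCR had a median of −2.71. For 19 of the 94 contigs the difference was 3 or more on the log2 scale, and for 50 it was below 2. The summed CPM of the 94 contigs was 3719, 2411 and 2990 in MCR1, MCR2 and MCR3, against 13069, 13078 and 8278 in TCR1, TCR2 and TCR3. The mean of TCR was 3.77 times that of MCR, 4.30 times without TCR3, 3.42 times without MCR2 and 3.74 times without MCR3. In these bulk samples, fewer cells of a type and less RNA per cell cannot be told apart.

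**Figure D1:**
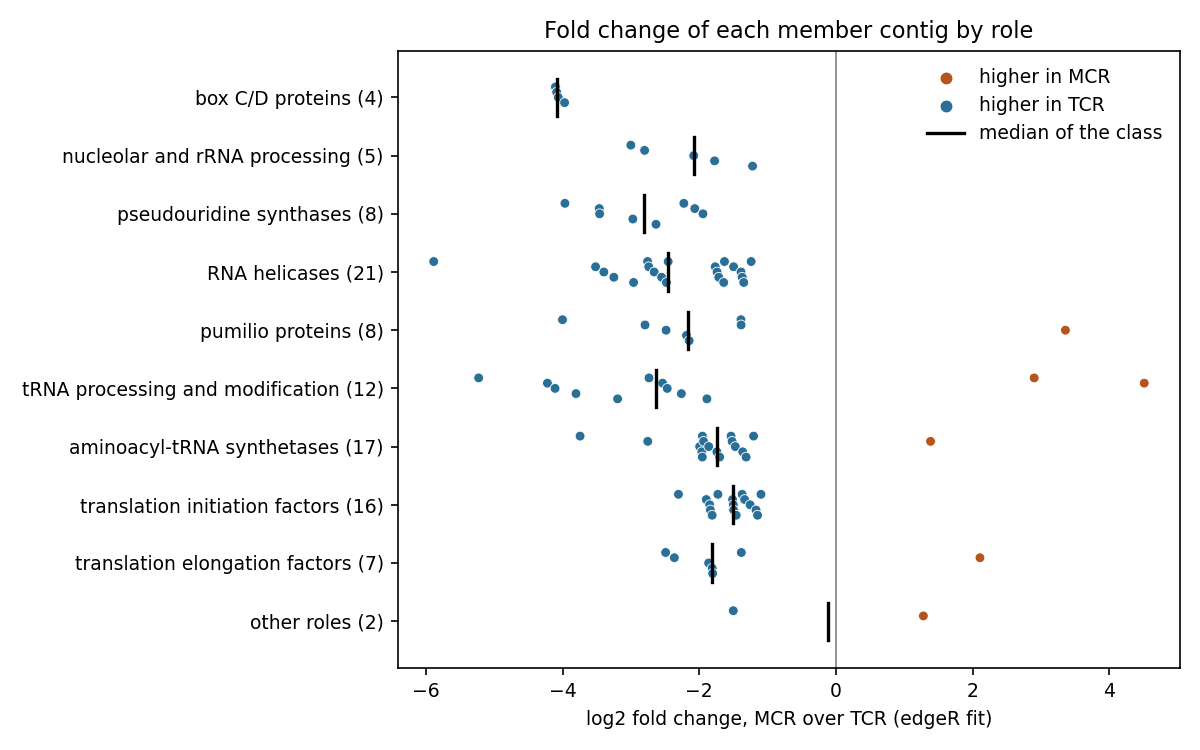
Log2 fold change of MCR over TCR for each of the 100 member contigs (points), grouped by role with the number of contigs in parentheses; a bar marks the median of each class. The 4 box C/D contigs lie near −4, the initiation factors between −2.30 and −1.10, and the 6 contigs to the right of 0 are in 5 classes.

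At an adjusted p below 0.05 (edgeR quasi-likelihood test, Benjamini-Hochberg over all contigs) and a log2 fold change of at least 1 in size, 2 members were called higher in MCR and 72 in TCR. Over all contigs tested, 8.39% were called, 2.40% with MCR higher and 5.98% with TCR higher, and nothing is read from the members' count against it, as the same contrast chose them. With the replicate number as a block, 6 members were called higher in MCR and 94 in TCR, where 20.1% of all contigs tested were called higher in MCR and 15.4% in TCR. The counts depended on single libraries, with 2 members called higher in TCR without TCR1, 4 without TCR2, 28 without MCR1 and 24 without MCR2, against 70 without TCR3 and 72 without MCR3. The share of all contigs called higher in TCR moved as well, to 0.656% when TCR1 was left out, 0.794% for TCR2, 3.14% for MCR1, 3.17% for MCR2, 5.19% for TCR3 and 7.65% for MCR3. The direction of the mean was the same for all 100 members in each of these 6 leave-outs, and no member's fold change took the other sign in any of the 15 alternative fits. The members were chosen on this contrast and 97 had no overlap, so their direction was largely set in advance. Nothing is read from its constancy.

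The rule's terms were found in 171 rows of the table, 74 higher in MCR and 97 higher in TCR, before the CPM minimum was applied. The minimum left out 71 of these rows, of which 68 were higher in MCR. In all 68, the lowest MCR library was under 0.1 of the mean of the other 2, and it was MCR3 in 54 of them. Their summed CPM was 373, 779 and 6.32 in MCR1, MCR2 and MCR3, against 21.0, 39.8 and 4.35 in TCR1, TCR2 and TCR3. These 68 matched elongation factors (21 rows), RNA helicases (15 rows), initiation factors (10 rows), synthetases (8 rows) and further roles. The split of 6 to 94 among the members thus rests on the CPM minimum. On the authors' CPM scale, the member nearest the minimum was TRINITY_DN6700_c0_g1 with 1.27 in the library that decided its inclusion. The nearest rows outside were TRINITY_DN10906_c1_g2 with 0.619 and TRINITY_DN10242_c0_g1 with 0.584.

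Box C/D ribonucleoproteins guide the 2′-O-methylation of rRNA in the nucleolus, and their core contains the paired proteins NOP56 and NOP58 beside the methylase fibrillarin. The 4 member contigs of this class had the lowest class median, with a log2 fold change of −4.08. The CPM minimum left out 3 further rows of this class, all 3 higher in MCR on average, with 0 to 0.0608 CPM in MCR3. They were a NOP56-like row (TRINITY_DN39109_c0_g1) and the fibrillarin rows TRINITY_DN16823_c0_g1 and TRINITY_DN192475_c0_g1, so fibrillarin is not among the members. The main contig of NOP56 (TRINITY_DN3169_c0_g1, matched to AT1G56110 at positions 20984544 to 20986893 on the reverse strand of Arabidopsis chromosome 1, TAIR 10) had 26.3, 13.04 and 7.42 CPM in the 3 MCR libraries, against 356, 336 and 91.0 CPM in the 3 TCR libraries, a log2 fold change of −4.06 ± 0.70. Another contig of the same assembly group (TRINITY_DN3169_c0_g2) had 0.407, 0.437 and 0.912 CPM in MCR1 to MCR3, against 12.5, 11.8 and 5.93 CPM in TCR1 to TCR3, with −4.09 ± 0.65 on the log2 scale. The gene AT3G05060 (chromosome 3, positions 1413174 to 1415564, reverse strand), described as NOP56-like, was matched by TRINITY_DN1482_c0_g1 with 23.9, 9.98 and 7.78 CPM in MCR1, MCR2 and MCR3, against 312, 295 and 110.3 CPM in TCR1, TCR2 and TCR3, a log2 fold change of −4.11 ± 0.62. Its other contig, TRINITY_DN3734_c0_g1, had 1.15, 0.374 and 1.88 CPM in the 3 MCR libraries, against 21.8, 20.8 and 11.3 CPM in the 3 TCR libraries, with −3.97 ± 0.68. Whether AT3G05060 encodes NOP56 or NOP58 was not tested. In all 4 contigs the 3 TCR libraries were above the 3 MCR libraries, and TCR3 was the lowest TCR library. The class summed to 51.8, 23.8 and 18.0 CPM in MCR1, MCR2 and MCR3, against 702, 663 and 219 CPM in TCR1, TCR2 and TCR3, 16.9 times as much on average.

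**Figure D2:**
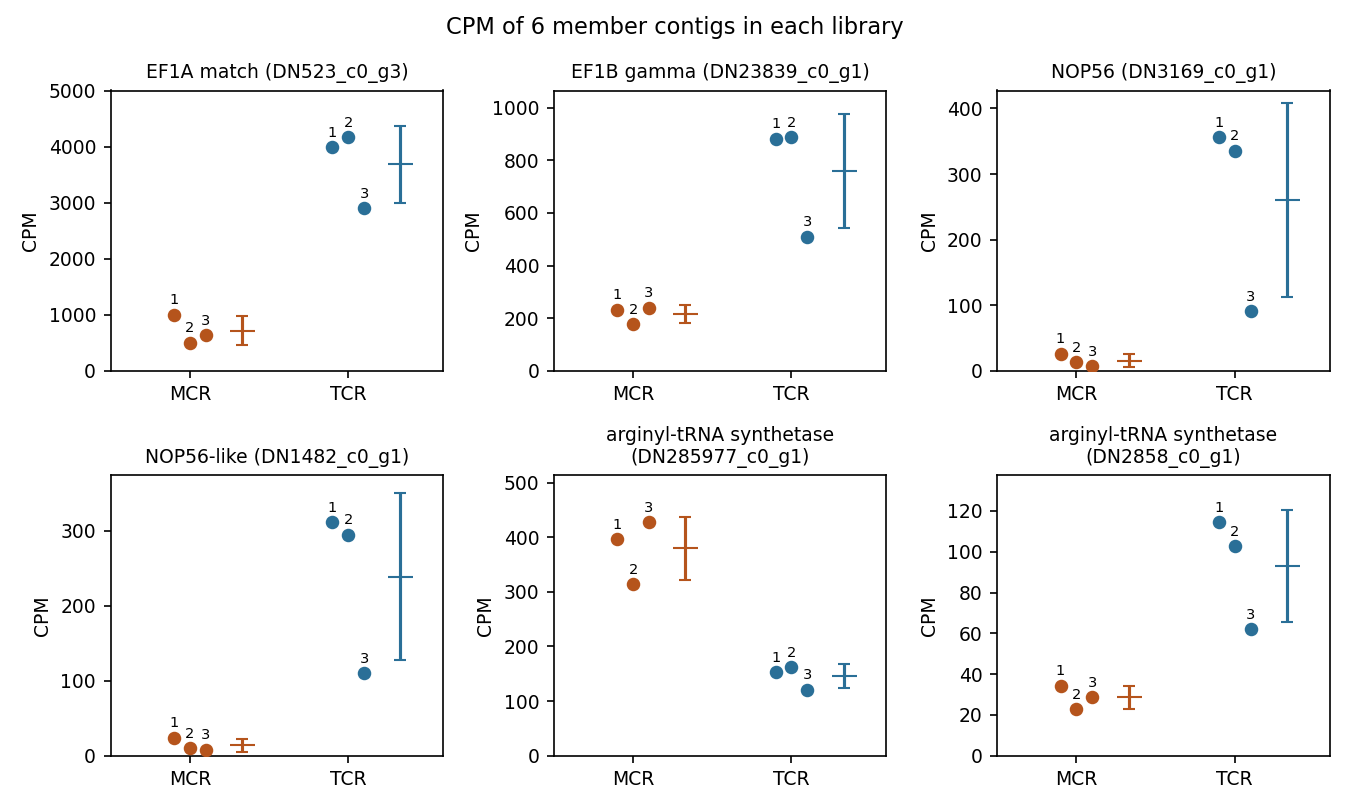
TMM-normalized CPM of leading members in each library (points numbered by replicate; MCR left, TCR right). Crossbars with whiskers are the mean ± SD of 3 libraries. NOP56, the contig described as NOP56-like, EF1A, EF1B gamma and the arginyl-tRNA synthetase of AT4G26300 (TRINITY_DN2858_c0_g1) are lower in every MCR library. The arginyl-tRNA synthetase of AT1G66530 (TRINITY_DN285977_c0_g1) is higher in every MCR library.

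Factors that cut pre-rRNA or assemble the large and small subunits formed a class of 5 contigs, all with higher CPM in TCR. The nucleolar GTP-binding protein NOG1 (AT1G50920), which acts in assembly of the large subunit in yeast, had 46.6, 30.4 and 23.6 CPM in MCR1 to MCR3, against 174, 178 and 74.3 CPM in TCR1 to TCR3 and a log2 fold change of −2.08 ± 0.44. RRS1 (AT2G37990), a ribosome biogenesis regulatory protein, had 23.1, 24.0 and 16.5 CPM in MCR1, MCR2 and MCR3, against 90.1, 87.3 and 40.6 CPM in TCR1, TCR2 and TCR3, a log2 fold change of −1.78 ± 0.38. The contig for a NOB1-domain protein (AT5G41190), named for the yeast endonuclease that makes the last cut of small-subunit rRNA, had 6.31, 4.49 and 2.74 CPM in the 3 MCR libraries, against 39.8, 35.6 and 19.0 CPM in the 3 TCR libraries with −2.80 ± 0.47 on the log2 scale. These 3 factors were lowest in MCR3 among the MCR libraries and lowest in TCR3 among the TCR libraries. The protein described as nucleolar essential (AT3G57000) had 8.82, 4.80 and 1.76 CPM in MCR1 to MCR3, against 54.5, 47.5 and 21.3 CPM in TCR1 to TCR3, the largest difference of the class at −3.00 ± 0.66. An rRNA processing protein (AT5G61330) had the smallest, −1.22 ± 0.33, with 62.8, 71.0 and 58.7 CPM in MCR1, MCR2 and MCR3, against 176, 181 and 90.7 CPM in TCR1, TCR2 and TCR3.

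Pseudouridine synthases turn uridines of rRNA and tRNA into pseudouridine. All 8 contigs, each of a separate Arabidopsis gene, were lower in MCR, with a median log2 fold change of −2.80. SVR1 (AT2G39140), a pseudouridine synthase of the chloroplast, had 0.271, 0.748 and 0.182 CPM in the 3 MCR libraries, against 8.37, 6.93 and 3.86 CPM in the 3 TCR libraries, a log2 fold change of −3.97 ± 0.81. The contig of AT1G20370 had 10.7, 8.54 and 5.59 CPM in MCR1 to MCR3, against 47.0, 48.7 and 20.4 CPM in TCR1 to TCR3, with −2.23 ± 0.45 on the log2 scale. AT4G21770 and AT3G04820 had the lowest ratios of TCR3 to TCR1 and TCR2 in the class. TRINITY_DN8311_c0_g1, the AT4G21770 contig, had 1.29, 1.37 and 0.669 CPM in MCR1, MCR2 and MCR3, against 17.5, 16.6 and 2.83 CPM in TCR1, TCR2 and TCR3. TRINITY_DN25134_c0_g1, the AT3G04820 contig, had 3.33, 1.56 and 0.851 CPM in the 3 MCR libraries, against 29.8, 28.6 and 4.74 CPM in the 3 TCR libraries. In both contigs TCR3 was far below the other TCR libraries and still above every MCR library. The contig of AT1G20410 had 2.92, 2.81 and 2.07 CPM in MCR1 to MCR3, against 26.4, 25.4 and 9.47 CPM in TCR1 to TCR3, with −2.97 ± 0.51 on the log2 scale, and that of AT5G35400 had 5.90, 3.37 and 3.71 CPM in MCR1, MCR2 and MCR3, against 20.2, 24.2 and 10.0 CPM in TCR1, TCR2 and TCR3, with −2.07 ± 0.48. The class summed to 30.4, 24.1 and 22.1 CPM in MCR1, MCR2 and MCR3, against 188, 186 and 76.0 CPM in TCR1, TCR2 and TCR3.

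RNA helicases were the class with the most members, 21 contigs of 18 Arabidopsis genes, all with higher CPM in TCR and a median log2 fold change of −2.46. RNA helicases unwind RNA in ribosome assembly, splicing, export and decay, and the descriptions of most members do not say in which. The class was set by the description alone, and whether each of its contigs acts on RNA was not tested. PMH2 (AT3G22330), a helicase of mitochondria that aids intron splicing in Arabidopsis, was matched by 3 contigs. TRINITY_DN1915_c0_g3 had 13.4, 5.99 and 4.68 CPM in the 3 MCR libraries, against 126, 121 and 29.3 CPM in the 3 TCR libraries, a log2 fold change of −3.52 ± 0.69. TRINITY_DN1915_c0_g2 had 2.24, 1.75 and 9.73 CPM in MCR1 to MCR3, against 32.7, 38.4 and 36.0 CPM in TCR1 to TCR3, with −2.96 ± 0.69, and TRINITY_DN1729_c0_g1 had 5.29, 4.62 and 4.50 CPM in MCR1, MCR2 and MCR3, against 27.0, 25.2 and 28.4 CPM in TCR1, TCR2 and TCR3, with −2.48 ± 0.31. The 3 contigs shared the direction, but TCR3 was far below TCR1 and TCR2 in the first and level with them in the others.

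HEN2 (AT2G06990), a helicase that serves the nuclear exosome in RNA decay, had 4.75, 4.24 and 3.28 CPM in the 3 MCR libraries, against 46.8, 45.8 and 24.4 CPM in the 3 TCR libraries and a log2 fold change of −3.25 ± 0.39. The contig with the largest difference of all members, described as a DEAD/DEAH box helicase (AT1G27880), had 0.204, 0.187 and 0.122 CPM in MCR1 to MCR3, against 12.7, 12.9 and 5.93 CPM in TCR1 to TCR3 and −5.89 ± 0.66 on the log2 scale, on 3, 3 and 2 reads in the MCR libraries. At the other end, the helicase of AT3G62310 had 36.3, 28.8 and 50.7 CPM in MCR1, MCR2 and MCR3, against 90.7, 89.8 and 93.3 CPM in TCR1, TCR2 and TCR3, with −1.24 ± 0.29. A contig of AT5G11170 had 106, 98.3 and 72.3 CPM in the 3 MCR libraries, against 297, 292 and 135 CPM in the 3 TCR libraries, with −1.39 ± 0.37. A contig of AT3G06480 had 47.2, 32.7 and 58.4 CPM in MCR1 to MCR3, against 129, 132 and 96.8 CPM in TCR1 to TCR3, with −1.37 ± 0.31. The class summed to 346, 269 and 305 CPM in MCR1, MCR2 and MCR3, against 1224, 1207 and 717 CPM in TCR1, TCR2 and TCR3.

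Pumilio proteins bind RNA in a sequence-specific way, and in Arabidopsis APUM23 and APUM24 are nucleolar and act in pre-rRNA processing. APUM24 (AT3G16810) had 17.0, 15.9 and 12.9 CPM in MCR1, MCR2 and MCR3, against 89.2, 82.3 and 37.2 CPM in TCR1, TCR2 and TCR3, a log2 fold change of −2.19 ± 0.39. APUM23 (AT1G72320) had 7.87, 5.36 and 3.89 CPM in the 3 MCR libraries, against 48.1, 49.9 and 20.9 CPM in the 3 TCR libraries, with −2.79 ± 0.47. Both were lower in each MCR library than in any TCR library. The 7 pumilio contigs higher in TCR summed to 84.2, 72.7 and 66.0 CPM in MCR1, MCR2 and MCR3, against 324, 321 and 198 CPM in TCR1, TCR2 and TCR3. The remaining contig, matched to APUM22 (AT1G01410), was the exception. It had 156, 559 and 1.76 CPM in MCR1 to MCR3, against 35.2, 32.6 and 2.01 CPM in TCR1 to TCR3, so that both libraries numbered 3 were far below their groups and the root types overlapped. Its log2 fold change was 3.36 ± 1.68, and it was the single uneven member, with an MCR library under 0.1 of the mean of the other 2. With it, the class summed to 240, 631 and 67.8 CPM in the MCR libraries, against 359, 354 and 200.05 CPM in the TCR libraries.

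Enzymes that trim and modify tRNA were represented by 12 contigs, 2 with more CPM in MCR and 10 with more in TCR. TADA (AT1G68720), the deaminase that edits the anticodon of chloroplast arginine tRNA, had 2.24, 1.43 and 0.973 CPM in MCR1, MCR2 and MCR3, against 32.1, 31.6 and 16.9 CPM in TCR1, TCR2 and TCR3, a log2 fold change of −4.11 ± 0.51. A peptidyl-tRNA hydrolase of the PTH2 family (AT5G16870), which frees stalled peptides from tRNA, had 0.136, 0.125 and 0.0608 CPM in the 3 MCR libraries, against 4.51, 6.07 and 2.29 CPM in the 3 TCR libraries, with −5.23 ± 0.83 on 2, 2 and 1 reads in the MCR libraries. These were among the largest differences of the class, at low CPM in MCR. Methyltransferases of the SpoU family were matched by 4 contigs of 2 genes, with log2 fold changes between −4.22 and −1.89. The contig at −1.89 (TRINITY_DN10650_c0_g3, AT4G15520) had 13.4, 7.73 and 14.8 CPM in MCR1 to MCR3, against 57.7, 46.1 and 29.3 CPM in TCR1 to TCR3. The contig of tRNAHis guanylyltransferase (AT2G31580) had 1.63, 0.499 and 0 CPM in MCR1, MCR2 and MCR3, against 10.7, 6.99 and 1.96 CPM in TCR1, TCR2 and TCR3, and it was the single member with a count of 0 in a library. The 10 contigs higher in TCR summed to 40.9, 21.3 and 31.9 CPM in MCR1, MCR2 and MCR3, against 228, 224 and 107 CPM in TCR1, TCR2 and TCR3.

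Contigs of related enzymes had fold changes of opposite sign in this class. N2,N2-dimethylguanosine tRNA methyltransferase was matched by TRINITY_DN18618_c0_g1 (AT3G02320) with 8.35, 4.05 and 5.84 CPM in the 3 MCR libraries, against 41.2, 40.8 and 19.1 CPM in the 3 TCR libraries, a log2 fold change of −2.47 ± 0.46. The same description was given to TRINITY_DN6700_c0_g1 (AT5G15810), which had 1.36, 4.12 and 8.51 CPM in MCR1 to MCR3, against 0.0716, 0.184 and 0.327 CPM in TCR1 to TCR3, with 4.51 ± 1.01. This AT5G15810 contig was called higher in MCR, on 1, 3 and 6 reads in the TCR libraries and with a wide spread within both root types, and the call was lost without MCR2, TCR1, TCR2 or TCR3 and with limma-voom. For tRNase Z4 (TRZ4, AT3G16260), which trims the 3′ end of tRNA precursors, TRINITY_DN7418_c0_g1 had 3.46, 2.25 and 4.62 CPM in MCR1, MCR2 and MCR3, against 23.2, 22.6 and 14.3 CPM in TCR1, TCR2 and TCR3, a log2 fold change of −2.54 ± 0.44. Another TRZ4 contig, TRINITY_DN13549_c0_g1, had 16.3, 57.8 and 3.71 CPM in the 3 MCR libraries, against 1.07, 4.66 and 4.63 CPM in the 3 TCR libraries, with 2.90 ± 1.02, and its root types overlapped because MCR3 lay below TCR2 and TCR3.

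**Figure D3:**
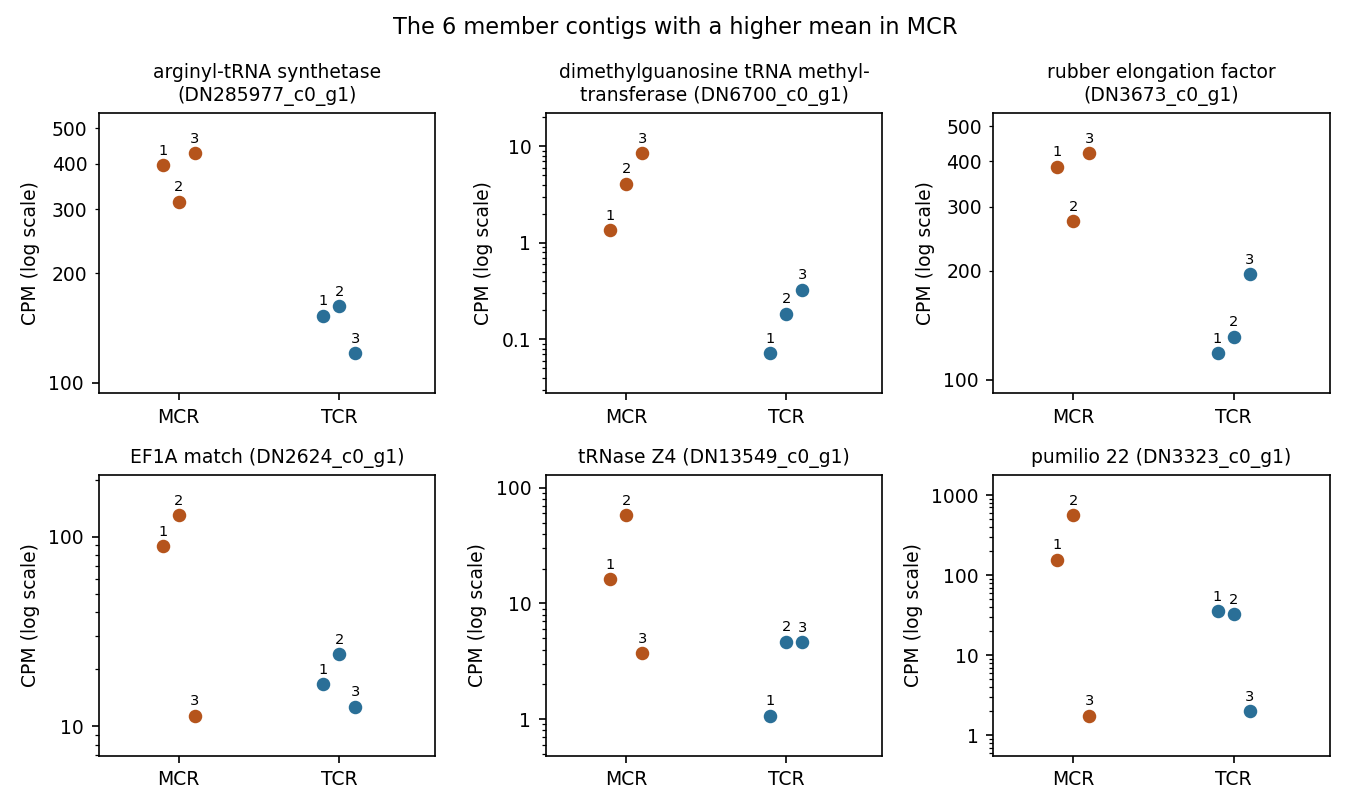
TMM-normalized CPM (log scale) of the 6 member contigs with a higher mean in MCR, per library (points numbered by replicate; MCR left, TCR right). The top row shows the 3 contigs without overlap between root types, and in the bottom row MCR3 lies below 2 or all 3 TCR libraries.

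Aminoacyl-tRNA synthetases load each tRNA with its amino acid. Of 17 contigs, each of a separate Arabidopsis gene, 16 were higher in TCR, with log2 fold changes between −3.74 and −1.21. They covered synthetases for alanine, asparagine, tyrosine, methionine, threonine, lysine, phenylalanine, arginine, glutamate or glutamine, valine, serine and glycine, among others. Lysyl-tRNA synthetase (AT3G11710) had 57.7, 35.4 and 42.6 CPM in MCR1 to MCR3, against 192, 186 and 115 CPM in TCR1 to TCR3, a log2 fold change of −1.86 ± 0.33. Valyl-tRNA synthetase (AT1G14610) had 79.1, 43.0 and 91.6 CPM in MCR1, MCR2 and MCR3, against 198, 193 and 159.8 CPM in TCR1, TCR2 and TCR3, with −1.36 ± 0.34, and glycyl-tRNA synthetase (AT1G29880) had 84.6, 57.1 and 69.6 CPM in the 3 MCR libraries, against 187, 179 and 121 CPM in the 3 TCR libraries, with −1.21 ± 0.30. In these contigs the lowest MCR library was MCR2, as in 14 of the 17 synthetases. The contig with the largest difference, described as an alanine-tRNA ligase (AT3G16565), had 0.0679, 0.125 and 0.608 CPM in MCR1 to MCR3, against 4.22, 4.47 and 2.40 CPM in TCR1 to TCR3, with −3.74 ± 0.99 on 1, 2 and 10 reads in the MCR libraries, and it was not called. Its matched Arabidopsis protein has 256 residues, against 978 for that of AT5G22800, and whether it loads tRNA was not tested. Alanyl-tRNA synthetase (AT5G22800) was low in both root types and had 0.543, 0.748 and 1.09 CPM in MCR1, MCR2 and MCR3, against 5.94, 5.03 and 5.28 CPM in TCR1, TCR2 and TCR3, with −2.75 ± 0.61. The 16 contigs summed to 633, 391 and 556 CPM in MCR1, MCR2 and MCR3, against 1837, 1794 and 1177 CPM in TCR1, TCR2 and TCR3.

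Arginyl-tRNA synthetase was the exception among the synthetases, as 2 contigs of this enzyme ran in opposite directions. TRINITY_DN285977_c0_g1, matched to AT1G66530 (chromosome 1, positions 24819064 to 24822277, reverse strand), had 396, 314 and 428 CPM in the 3 MCR libraries, against 153, 162 and 120.5 CPM in the 3 TCR libraries, a log2 fold change of 1.38 ± 0.27. TRINITY_DN2858_c0_g1, matched to AT4G26300 (chromosome 4, positions 13308400 to 13313109, reverse strand), had 34.3, 22.9 and 28.6 CPM in MCR1 to MCR3, against 115, 103 and 62.1 CPM in TCR1 to TCR3, with −1.70 ± 0.34. Neither contig overlapped between root types. The AT1G66530 contig was called higher in MCR in 12 of 15 alternatives, the exceptions being the fits without TCR1, TCR2 or TCR3.

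Initiation factors bring the first tRNA and the ribosome to the mRNA. All 16 contigs of this class had higher CPM in TCR, with log2 fold changes between −2.30 and −1.10. The scaffold complex eIF3 was represented by 10 contigs of 8 subunits. Its subunit b (EIF3B-2, AT5G25780) had 147, 109.6 and 149.6 CPM in MCR1, MCR2 and MCR3, against 417, 426 and 309 CPM in TCR1, TCR2 and TCR3, a log2 fold change of −1.50 ± 0.28. Subunit d (AT4G20980, described as subunit 7) had 84.0, 47.0 and 79.8 CPM in the 3 MCR libraries, against 261, 263 and 229 CPM in the 3 TCR libraries, with −1.84 ± 0.31, and subunit e (EIF3E, AT3G57290) had 114, 71.5 and 70.2 CPM in MCR1 to MCR3, against 369, 350.1 and 127 CPM in TCR1 to TCR3, with −1.73 ± 0.46. The 3 subunits differed in TCR3, which was close to TCR1 and TCR2 for subunit d and far below them for subunit e. Subunit c (EIF3C, AT3G56150) was matched by 3 contigs with log2 fold changes of −1.90 ± 0.39, −1.85 ± 0.30 and −1.34 ± 0.25. The 10 eIF3 contigs lay between −1.90 and −1.26.

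The trimer eIF2, which carries the initiator tRNA, was represented by 3 contigs, all higher in TCR. Its first subunit (AT2G40290) had 54.4, 51.5 and 65.8 CPM in MCR1, MCR2 and MCR3, against 144, 129 and 107 CPM in TCR1, TCR2 and TCR3, with −1.15 ± 0.26 on the log2 scale. The beta subunit (AT5G20920) had 64.6, 44.2 and 45.9 CPM in the 3 MCR libraries, against 153, 141 and 107 CPM in the 3 TCR libraries, with −1.37 ± 0.29, and the gamma subunit (AT1G04170) had 81.4, 56.1 and 81.2 CPM in MCR1 to MCR3, against 176, 165 and 151 CPM in TCR1 to TCR3, with −1.17 ± 0.27. Their fold changes lay within 1 SE of each other. The cap-complex scaffold eIF4G (AT3G60240) had 135, 83.0 and 92.2 CPM in MCR1, MCR2 and MCR3, against 247, 252 and 163 CPM in TCR1, TCR2 and TCR3 and the smallest difference among the 94 contigs, −1.10 ± 0.32. A protein described as of the eIF2 family (AT1G76810), which is not among the 3 contigs of the trimer, had 4.82, 4.12 and 7.60 CPM in the 3 MCR libraries, against 30.9, 30.7 and 20.2 CPM in the 3 TCR libraries and the largest of the class, −2.30 ± 0.40.

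**Figure D4:**
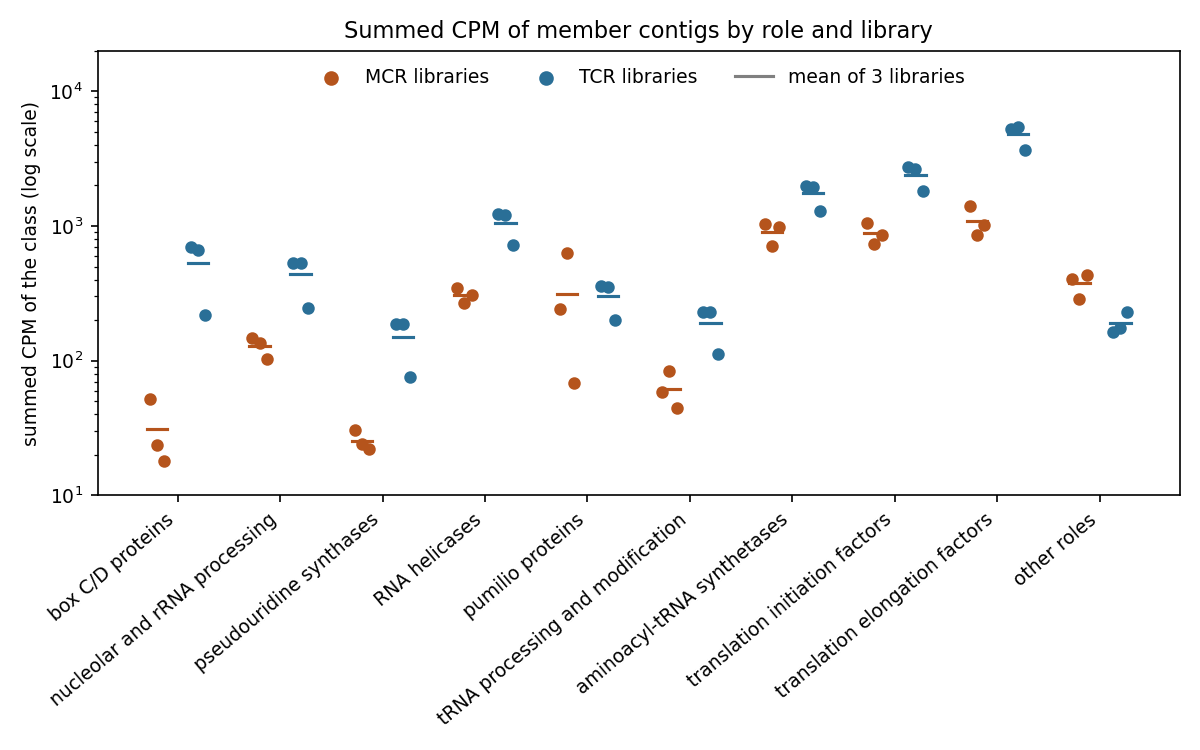
Summed TMM-normalized CPM of the member contigs of each role, per library, on a log axis; points are the 3 MCR libraries (left) and the 3 TCR libraries (right) in order of replicate number, and bars are their means. Every TCR library is above every MCR library except for the pumilio proteins, where MCR2 is highest, and the 2 contigs of other roles.

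Elongation factors move the ribosome along the mRNA. EF1A, which delivers loaded tRNAs to the ribosome, took the most reads of all members, a number that also depends on its length. Its main contig (TRINITY_DN523_c0_g3, matched to AT5G60390 at positions 24289226 to 24290675 on the forward strand of chromosome 5) had 1006, 502 and 640.4 CPM in MCR1 to MCR3, against 3995, 4171 and 2899.8 CPM in TCR1 to TCR3, a log2 fold change of −2.37 ± 0.37. The gamma chain of its exchange factor EF1B (AT1G09640, chromosome 1, positions 3120162 to 3122152, forward strand) had 232, 177 and 239.5 CPM in MCR1, MCR2 and MCR3, against 881, 888 and 509.6 CPM in TCR1, TCR2 and TCR3, with −1.81 ± 0.33. In both, MCR2 was the lowest MCR library and TCR3 the lowest TCR library, without overlap. The study used an EF1A ortholog as the reference gene of its quantitative PCR, and which contig that gene is was not given in the sources used here.

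EF1A was spread over 12 rows of the table, all matched to AT5G60390. The other member, TRINITY_DN2624_c0_g1, had 89.0, 129.9 and 11.4 CPM in the 3 MCR libraries, against 16.7, 24.0 and 12.7 CPM in the 3 TCR libraries, a log2 fold change of 2.11 ± 0.78, and overlapped between root types because MCR3 was below all 3 TCR libraries. A further 10 rows were under the CPM minimum and all higher in MCR on average. They summed to 133, 393 and 1.03 CPM in MCR1, MCR2 and MCR3, against 13.1, 21.6 and 0.599 CPM in TCR1, TCR2 and TCR3. Over all 12 rows the sum was 1228, 1025 and 653 CPM in the MCR libraries, against 4025, 4217 and 2913 CPM in the TCR libraries. The estimation can divide reads between near-identical copies. Whether these 12 rows are such copies was not tested, and the values of single EF1A contigs are uncertain.

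The organelle elongation factors were also lower in MCR. Mitochondrial EF-Tu (AT4G02930) had 23.8, 13.2 and 59.9 CPM in MCR1 to MCR3, against 211, 209.6 and 125 CPM in TCR1 to TCR3, a log2 fold change of −2.49 ± 0.58. The EF-Ts contig (AT4G29060) had 12.8, 9.73 and 15.0 CPM in MCR1, MCR2 and MCR3, against 45.8, 48.9 and 41.5 CPM in TCR1, TCR2 and TCR3, with −1.86 ± 0.29, and the chloroplast EF-G SCO1 (AT1G62750) had 9.91, 4.68 and 14.3 CPM in the 3 MCR libraries, against 34.4, 35.5 and 31.3 CPM in the 3 TCR libraries, with −1.80 ± 0.44. A further EF-G (AT1G45332) had 33.6, 21.1 and 40.8 CPM in MCR1 to MCR3, against 85.5, 87.6 and 76.3 CPM in TCR1 to TCR3, with −1.38 ± 0.32. All 4 contigs had MCR3 as the highest MCR library, and none overlapped between root types.

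The term elongation factor also took 2 contigs that are not translation elongation factors. Rubber elongation factor (AT1G67360), which in Arabidopsis belongs to a family of lipid droplet proteins, had 386, 274 and 421 CPM in MCR1, MCR2 and MCR3, against 118, 131 and 195 CPM in TCR1, TCR2 and TCR3, a log2 fold change of 1.28 ± 0.32. A TFIIS-family transcription elongation factor (AT4G24200) had 16.2, 13.5 and 13.9 CPM in the 3 MCR libraries, against 45.0, 43.8 and 34.6 CPM in the 3 TCR libraries, with −1.50 ± 0.28. Without these, 5 of 98 contigs had a higher mean in MCR and 93 in TCR.

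The 94 contigs were not equally high in the TCR libraries. TCR3 was the lowest TCR library in 86 of them, and the median ratio of TCR3 to the mean of TCR1 and TCR2 was 0.562, against 0.773 for the 14706 contigs whose mean CPM exceeded 5. For the 3429 rows of the table past the CPM minimum and higher in TCR, the median ratio was 0.651. The median ratios by class lay between 0.425 for box C/D proteins and 0.710 for elongation factors, leaving out the 2 contigs of other roles. The ratio also depended on the scaling, an alternative chosen after seeing the data, in that with library size alone it was 0.655 for the 94 contigs and 0.903 for all contigs, and with RLE size factors 0.677 for the 94 contigs and 0.936 for all contigs. Ribosomal protein contigs with the same CPM minimum had a median ratio of 0.415, and contigs of dividing cells (cyclins, replication factors and histones) 0.496. Of 40 dividing-cell rows, 10 under the CPM minimum were higher in MCR, and the 30 past it were higher in TCR, 28 of them called. These 30 summed to 184, 184 and 131 CPM in MCR1, MCR2 and MCR3, against 2438, 2382 and 923 CPM in TCR1, TCR2 and TCR3. The part of dividing cells in the members' values was not tested.

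**Figure D5:**
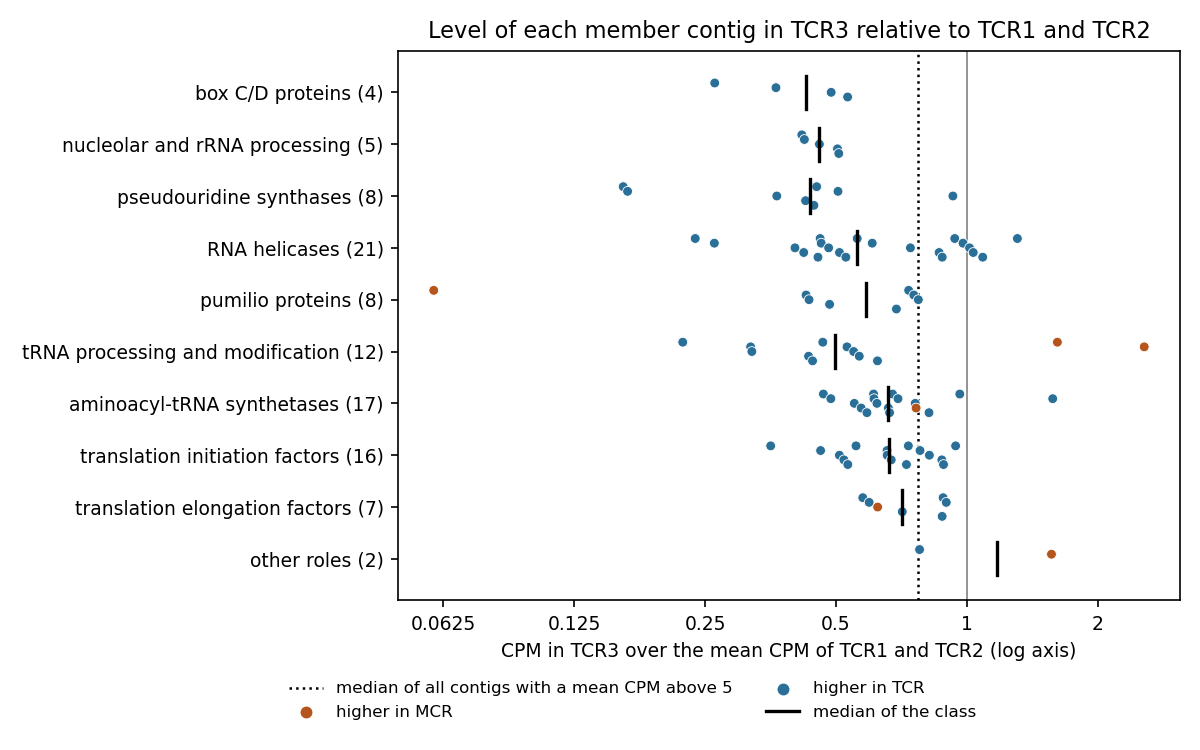
CPM in TCR3 over the mean CPM of TCR1 and TCR2 for each member contig (log axis), by role; bars mark class medians, the dotted line the median of 0.773 for contigs whose mean CPM exceeded 5, and the solid line a ratio of 1. The class medians lie left of the dotted line except that of the 2 contigs of other roles.

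Beside the members, other genes of the same pathways were counted from a list of terms that the rule does not contain. Of 13 further rows on ribosome assembly, 2 below the CPM minimum had higher CPM in MCR, and the 11 past it had higher CPM in TCR, of which 10 were called. These rows come from the same table of selected contigs. CBF5 (AT3G57150, also NAP57), the pseudouridine synthase of box H/ACA particles, had 12.3, 7.92 and 3.34 CPM in MCR1 to MCR3, against 323, 316 and 81.2 CPM in TCR1 to TCR3, a log2 fold change of −4.94 ± 0.74. GAR1 (AT3G03920), of the same particles, had 11.1, 2.62 and 6.57 CPM in MCR1, MCR2 and MCR3, against 130.0, 114 and 61.8 CPM in TCR1, TCR2 and TCR3, with −3.91 ± 0.60. Nucleolin (NUC-L2, AT3G18610) had 38.3, 21.5 and 11.9 CPM in the 3 MCR libraries, against 499, 442 and 197 CPM in the 3 TCR libraries, with −3.99 ± 0.58. These 3 were among the largest differences of the 11, which lay between −4.94 and −1.56 on the log2 scale with a median of −3.10. Of 11 further rows on translation, the 5 past the CPM minimum (3 contigs of the poly(A)-binding protein PAB2, 1 of PAB4 and 1 of eIF(iso)4E) were all higher in TCR and called, and the other 6 were listed higher in MCR with 0 counts in MCR3 and in every TCR library.

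Of the ribosomal protein contigs, which the rule left out, 1 of the 119 past the CPM minimum had a higher mean in MCR and 118 had a higher mean in TCR, with a median log2 fold change of −2.29. Without the minimum, 231 of 349 were higher in MCR. Of all 4604 rows of the table past the minimum, 3429 (74.5%) were higher in TCR, with a median log2 fold change of −2.71 among these, and 2448 of them were called. The members' split of 6 to 94 was not tested against these lists.

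The 100 contigs matched 87 Arabidopsis genes. Each gene counted once, by its member contig with the highest mean CPM, 5 were higher in MCR and 82 in TCR. There were 10 genes matched by more than 1 contig and 7 assembly groups that held 14 members, so contigs are not independent of each other. In 8 of the 10 genes all member contigs had 1 direction, and TRZ4 and EF1A were the genes with member contigs in both. Of the 47 genes matched by the 71 rows under the CPM minimum, 17 were also matched by members. As 68 of those 71 rows were higher in MCR, more genes had rows in both directions when the rows under the minimum are included.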

How the data were processed

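Poly(A) RNA of 3 libraries of MCR and 3 of TCR was sequenced by the authors as paired-end reads, cleaned with Trimmomatic 0.39, assembled with Trinity and quantified with Salmon 1.9.0. The estimated counts (expected counts) were deposited by the authors without normalization, 1 value per contig and library. CPM in the deposited table had been normalized across samples by the authors, who added 0.01, and served here only to apply the rule. That table's fold changes on the log2 scale, p-values and q-values are the authors' own comparison and were not used. How transcripts were summed to contigs is not given in the sources used here.

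The estimated counts were rounded to whole numbers, since the test requires them. Contigs were kept if either root type averaged at least 0.4 CPM (49813 of 183999) and compared with edgeR 4.0.16 in R 4.3.3, with TMM normalization and the quasi-likelihood test. TMM factors lay between 0.868 (MCR3) and 1.18 (TCR3). Calls required a Benjamini-Hochberg adjusted p under 0.05 and at least 1 log2 unit of difference. An exact two-sided permutation test of 3 libraries against 3 reaches 0.1 at best. The SE was obtained from the F statistic, as the fold change over its root.

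The members and lists were chosen with earlier results of these data known. Roles were assigned by the terms of the Arabidopsis description, and 2 contigs were moved between roles after their descriptions had been read: SYNC1 (AT5G56680) to the synthetases and rubber elongation factor to other roles. Named were all EF1A contigs, all members higher in MCR, in each role the 4 members with the highest mean CPM and the 2 with the largest change, genes with 3 or more contigs, and uneven members, except 1 gene that is not reported here. Further members with a known role are named after their values were seen. Percent identity to the Arabidopsis match was not used here, and contig sequences were not analysed here.

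Libraries with the same number deviated together from their root type means (Pearson correlation across 14706 contigs of 0.336, 0.363 and 0.477 for numbers 1, 2 and 3), so the numbers, which come from the titles alone, passed the check for pairing. The fold changes, SEs and calls reported are from the fit without a block, and the block was run as an alternative. Libraries with different numbers also did so in 2 cases (0.316 for MCR1 with TCR2 and 0.185 for MCR2 with TCR1). Alternatives were other filters (every contig with a read, CPM in 3 libraries, filterByExpr), other scalings (RLE size factors or none beyond library size), other tests (edgeR exact, limma-voom in limma 3.58.1, DESeq2 1.42.0), a replicate block, dropping the fold-change minimum, and leaving out single libraries. Tables were handled with Python 3.11.15 and pandas 2.3.3.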

Additional observations from a re-analysis of the deposited data

How the results depend on the processing

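The 54 members named by rule kept their direction in all 15 alternatives (810 values), 583 of them on the same side of the threshold, 159 no longer past it and 68 newly past it. The choice of members on this contrast largely set that direction in advance, and nothing is read from its constancy. Called higher in MCR were 2 members, 6 when every contig with at least 1 read was tested, with DESeq2 and with the replicate block, and 0 to 4 with a library left out. The number of members called higher in TCR ranged from 2 to 72 with a library left out, against 72 with all 6, and a fit with 2 libraries in 1 root type has fewer samples. Over all contigs, 1196 were called higher in MCR, against 4959 when every contig with a read was tested, 2173 with the CPM minimum in 3 libraries, 2393 with filterByExpr, 1919 with the exact test, 4119 with DESeq2, 10008 with the replicate block and 208 to 3200 with a library left out. Called higher in TCR were 2981, against 4505 with the edgeR exact test, 5068 with DESeq2, 7696 with the replicate block and 327 to 4260 with a library left out. The share of all calls that were higher in MCR was 28.6%, against 19.8% when libraries were scaled by size only, 39.8% with RLE, 44.8% with DESeq2, 53.7% when every contig with a read was tested, 56.5% with the replicate block, 38.2% and 39.98% with the other filters and 25.7% to 42.9% with a library left out. Scaling by RLE and by size only moved the median over all contigs tested, 0.57 on the log2 scale, to 0.84 and 0.37. The summed pumilio contigs had a log2 ratio of 0.04, which was −0.069 with scaling by library size only. At a CPM minimum of 5 in place of 1, 3 members were higher in MCR. Without MCR3, 6 members had no overlap with MCR higher, against 3 in the other leave-outs, while the share of all contigs was 38.5%, against 11.7% to 18.5% in the others, an alternative chosen after seeing the data. The causes of these changes were not tested.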
